A study of Mus musculus with 75 samples.

Results

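A group of 89 genes rose between passage 1 and passage 3 of mouse skin fibroblasts and then stayed near the level reached, through passage 5 and passage 7. They were picked from 24984 genes in the count files by a rule on the passage libraries themselves. The rule used the level CPM, a gene's counts over the library sum on a common scale, as log2(CPM + 1), averaged over the 4 libraries of a passage. It asked for a mean CPM of at least 5 at P3, a step from P1 to P3 of at least 0.8, and a distance from P3 of under 0.5 at both P5 and P7. A step of this size was found in 192 of 10300 genes that reached the CPM minimum, and 69 of these rose further by P7, 27 fell back and 7 left the band at P5 alone. Since the rule read the passage values, these are given here as a description and carry no test. The perturbation libraries, and the open chromatin profiles, were not used by the rule.

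Sorted by hand into roles, 15 of the 89 genes encode matrix proteins or matrix enzymes, 11 adhesion molecules and 17 receptors or signalling proteins. Dermal fibroblasts build the collagen network of the skin, and when they are placed on a stiff culture dish they are known to spread, form focal adhesions and turn up matrix, adhesion and contractile genes. Serial passaging ends in replicative senescence, a lasting growth arrest, so a gene that changes early and then holds is distinct in time from one that follows the arrest.

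All samples were fibroblast cultures of the C57BL/6 strain. The passage series came, per the study's methods, from the skin of 2-month-old female mice and was untreated, with 4 RNA-seq libraries each at P1, P3, P5 and P7, and with 13 ATAC-seq samples (4 at P1 and 3 at each later passage). In the E2f4 overexpression experiment, 2 libraries carried a doxycycline-inducible lentiviral E2f4 cDNA linked to EGFP and 2 control libraries expressed EGFP under the same culture conditions, in cells the study describes as pre-senescent at passage 4. The knockdown experiments used lentiviral short hairpins and a control labelled nt, 3 libraries per arm: E2f4 sh1 (in proliferating P3 cells), Tead1 sh3 and sh4, and Atf3 sh5 and sh6 (in pre-senescent cells). The sh3 and sh4 arms share their control libraries, as do sh5 and sh6, and the labels do not say whether manipulated cells came from newborn or adult skin. By the study's supplement, sh3 and sh4 target overlapping, nearly identical stretches of Tead1. Nothing states that libraries of an arm came from separate animals, so p-values measure the spread between these libraries only, which may be technical.

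Library sums lay between 13430229 and 15725823 counts in the passage series and between 9147324 and 27552949 over all 44 RNA-seq libraries. For 6 marker lists of other cells the summed level was lower in every P3 library than in every P1 library. The summed CPM of 15 macrophage markers was 391 to 603 in the P1 libraries and 49.8 to 70.0 at P3, that of 14 keratinocyte markers 90.8 to 525 and 6.06 to 9.35, and that of 11 endothelial markers 206 to 232 and 51.2 to 61.8. The sum of 15 skeletal muscle markers was 219 to 345 at P1 and 60.8 to 71.0 at P3, that of 8 markers of antigen-presenting cells 19.5 to 26.4 and 6.37 to 8.45, and that of 10 adipocyte markers 469.6 to 636 and 227 to 415. The 12 fibroblast markers summed to 25885 to 27902 at P1 and 31914 to 37683 at P3. In bulk libraries, fewer cells of a type and less RNA per cell cannot be told apart. The part of these shifts in the members' step was not tested. No member is on the macrophage, antigen-presenting cell, keratinocyte, muscle, endothelial, adipocyte or fibroblast marker list, and Mcam is on that of pericytes and smooth muscle, whose summed CPM lay at 3489 to 4500.2 at P1 and at 4353 to 5990.3 at P3. No macrophage or endothelial marker was at 0 in all P3 libraries, and the markers that were are Krt15 (keratinocytes), Ckm and Pax7 (muscle), Cd207 and Flt3 (antigen-presenting cells) and Cidec, Lep, Cfd and Retn (adipocytes).

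The step itself had a median of 1.03 on the log2(CPM + 1) scale, from 0.80 to 2.10, and the median ratio of mean CPM at P3 to that at P1 was 2.204. In 64 members the ratio was at least 2 and in 14 at least 3. Every P3 library lay above every P1 library for all 89 members, which 12.9% of the 10300 genes with the CPM minimum also did. For 83 members all 12 later libraries lay above all 4 P1 libraries, against 6.43% of the 10300 genes, and the other 6 included Adamts12, Fhl1, Akap6, Plekhg1 and Pcdh9. The members together took a mean of 1.95% of all counts in the P1 libraries, 3.95% in those of P3, 3.93% at P5 and 4.503% at P7, or 17306 to 21105 summed CPM in the P1 libraries and 37714 to 41358 at P3. From P3 to P7 the mean of 55 members moved up within the band and that of 34 moved down.

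**Figure D1:**
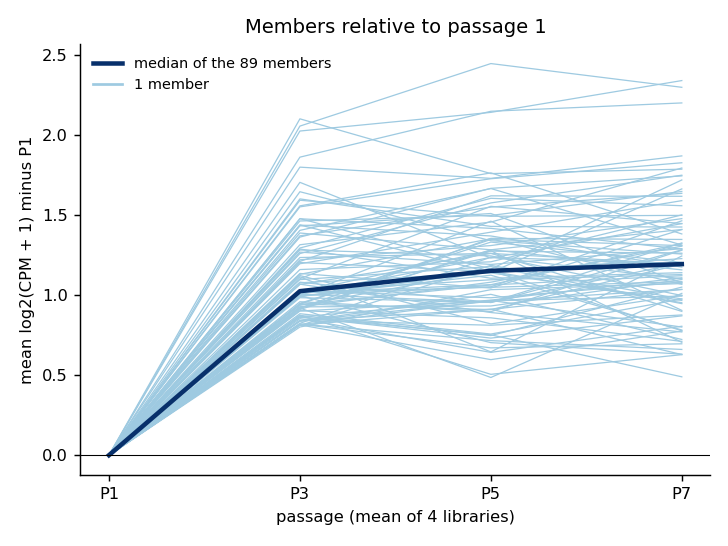
Mean log2(CPM + 1) of each of the 89 members at P1, P3, P5 and P7 (4 libraries each) minus its own mean at P1, as thin lines, with the median of the members as a thick line. The lines separate from 0 at P3 by 0.80 to 2.10 and then stay within 0.5 of their P3 value, as the rule requires.

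Close to the limits of the rule, Csgalnact1 (step 0.80), Smim19 (0.81) and Col5a2 (0.81) were the last members inside the step limit, and Slc35f1 (0.80, 0.799 before rounding), 4921524J17Rik (0.80, 0.797) and Akap12 (0.79) the first outside. At the P5 limit, Tll1 (P5 minus P3 of -0.47), Hbegf (-0.47) and Ugt1a6a (0.46) were inside and Gpr149 (0.54), Adamts5 (0.63) and P2rx3 (0.65) outside. At the P7 limit, Arrdc4 (P7 minus P3 of 0.49), Gabrb1 (0.48) and Igsf9b (0.47) were inside and Pld1 (0.50), Gap43 (-0.52) and Txnip (0.52) outside. At the CPM minimum, Tdrkh (5.10 CPM), Gabrb1 (5.43) and Tnmd (5.83) were inside and Npr3 (4.76) and S100b (4.30) outside.

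Thbs1 (thrombospondin 1, a matricellular glycoprotein that activates latent TGF-beta; chr2:118111876-118127133, plus strand, GRCm38) was the most abundant member and had 7463, 8508, 6496 and 9008 CPM in the P1 libraries, 14269, 15156, 14293 and 16522 in those of P3, 15722, 15717, 13952 and 13438 at P5 and 15596, 18679.5, 19924 and 17568 at P7. Its libraries at P1 and P3 were far apart, and its mean ratio of P3 to P1 was 1.91. Lox (lysyl oxidase, the enzyme that cross-links collagen and elastin) had 2386, 2924, 2064 and 2708 CPM in the P1 libraries, 4158, 5315, 4400.0 and 4521 in those of P3, 4536, 4988, 3889 and 3526 at P5 and 5269, 5008, 5679.6 and 4794 at P7. Postn (periostin, a matricellular protein of collagen-rich and healing tissue; chr3:54359267-54391041, plus strand) had 1175, 1237, 1309.9 and 906 CPM in the P1 libraries, 3459.8, 4582, 3621 and 2560.2 in those of P3, 2837, 4941, 2957 and 2201 at P5 and 4084, 2205, 3588 and 2794 at P7, a step of 1.60. Its libraries ranged from 2560.2 to 4582 CPM at P3, and no later library came down to the range of P1. Per kb of exon, the highest mean levels at P3 were those of Thbs1 (2575 CPM per kb), Postn (1044), Lox (932) and Col5a2 (744).

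Col5a1 and Col5a2, which encode chains of the fibrillar collagen V, belonged to the group. Collagen V is a minor component of collagen I fibrils and is known to set their diameter. Col5a1 had 1327, 1401, 1374 and 1333 CPM in the P1 libraries, 2774, 2391, 2470.1 and 2721 in those of P3, 2506, 2669.6, 2932 and 3486 at P5 and 2772, 3555, 3263 and 3969.9 at P7. Col5a2 had 2708, 2861, 2729 and 2897 CPM in the P1 libraries, 4944, 5187, 4628 and 4926 in those of P3, 5162, 5509, 5361 and 5039.7 at P5 and 5852, 5546, 5864 and 5699 at P7, with an SD of only 94.2 at P1 (n = 4) and one of the smallest steps, 0.81. Of 22 collagens tested, 5 passed the call at P3 against P1 in the edgeR fit described below, all 5 higher, and at an adjusted p under 0.05 alone 11 were higher and 1 lower. Of all 13442 genes tested, 2.40% were higher and 6.58% lower past both limits, and 2144 were higher and 2349 lower at the adjusted p alone. Col28a1, a beaded-filament collagen found mainly around nerve, was far lower in level, with means of 7.23 ± 0.922 CPM at P1 and 28.9 ± 2.62 at P3 (SD, n = 4), but had one of the largest steps, 1.86.

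Other matrix members spanned a wide range of levels. Ccn2 (connective tissue growth factor, a matricellular protein and a well-known target of YAP and TEAD; chr10:24595442-24598683, plus strand) had 293, 448, 194 and 410.0 CPM in the P1 libraries, 703, 907, 794 and 1122 in those of P3, 698, 800.5, 621 and 720.5 at P5 and 919, 1300.0, 849 and 1048 at P7. Its P1 libraries ranged from 194 to 448 CPM, and the lowest later library, at 621, still lay above them. Fmod (fibromodulin, a small leucine-rich proteoglycan that binds collagen fibrils) had 26.7, 32.1, 20.7 and 35.1 CPM in the P1 libraries, 87.6, 82.8, 71.8 and 64.5 in those of P3, 72.3, 91.99, 103 and 102 at P5 and 78.3, 74.9, 79.3 and 55.8 at P7. Ccdc80, a secreted matrix-associated protein, went from 818 ± 121 CPM at P1 to 1659 ± 140.0 at P3 and 1718 ± 57.7 at P7 (SD, n = 4). Edil3, a secreted integrin ligand, had 19.95, 19.7, 22.9 and 26.9 CPM in the P1 libraries, 64.7, 84.4, 76.6 and 96.9 in those of P3, 58.1, 98.9, 64.1 and 90.5 at P5 and 69.6, 64.6, 69.5 and 158 at P7, and 1 of the P7 libraries lay far above the other 3. Tll1, a metalloprotease of the BMP1 family that processes procollagen and pro-lysyl oxidase, had a step of 1.71, and Adamts12, a secreted metalloprotease, 1.00.

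**Figure D2:**
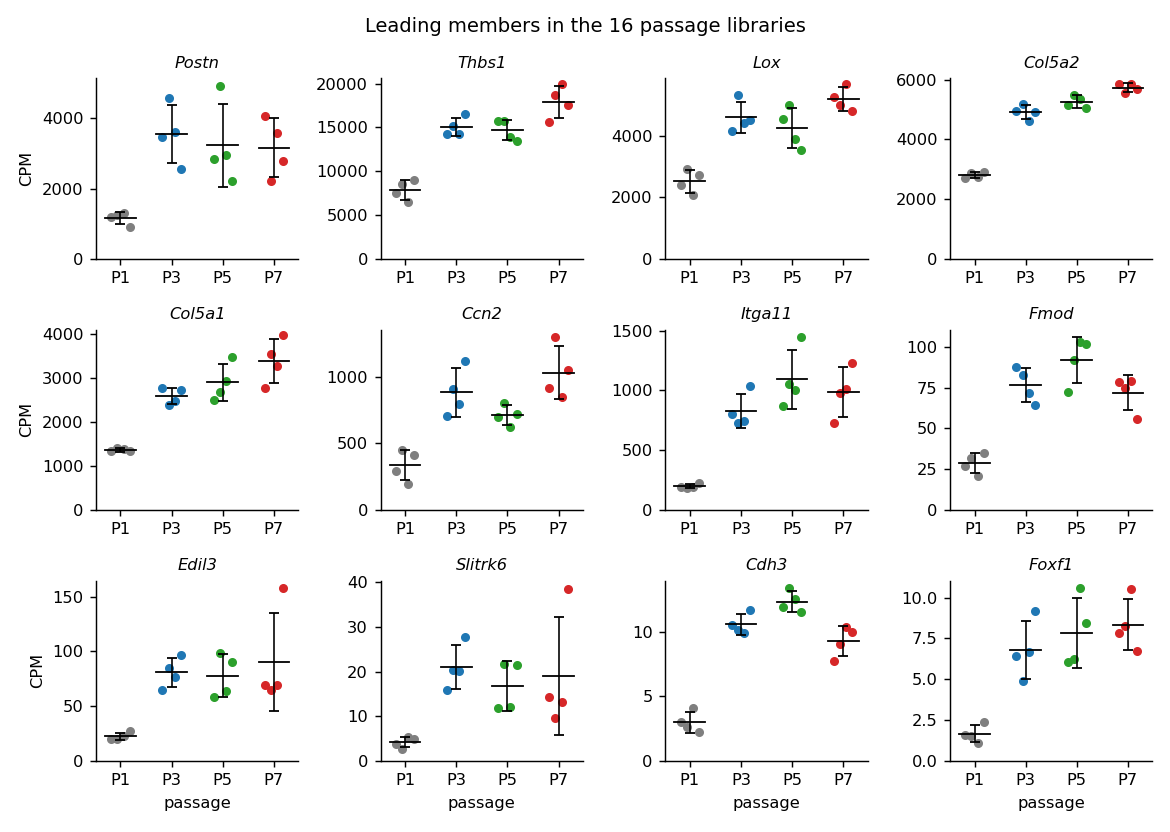
CPM of 12 members in each of the 16 passage libraries. Points are libraries, horizontal lines the mean and bars the SD (n = 4), all axes start at 0, and in each panel the P1 points lie below all P3 points.

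Among the adhesion genes, Itga11 (the alpha chain of the collagen receptor integrin alpha 11 beta 1, found on fibroblasts; chr9:62677855-62783979, plus strand) had one of the clearest steps. It had 189, 182, 192 and 223 CPM in the P1 libraries, 802, 725, 742 and 1038 in those of P3, 866, 1054, 1003 and 1446 at P5 and 723, 974, 1013 and 1229 at P7, a step of 2.06 and a ratio of 4.21. The highest P1 library, at 223, lay far below the lowest later one, at 723. Cdh3 (P-cadherin) reached 10.6 ± 0.788 CPM at P3 from 2.98 ± 0.786 at P1 (SD, n = 4), while the summed level of the keratinocyte marker list, whose cells also make P-cadherin, was lower at P3 than at P1. Which cells supplied the Cdh3 transcript was not tested. Cavin2, a coat protein of caveolae, had a step of 1.39, with 50.8, 65.7, 67.5 and 140.3 CPM in the P3 libraries, of which the last stood apart. Mcam (CD146) likewise had 64.2, 68.5, 67.2 and 140.1 CPM at P3.

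Several members are better known from nerve than from skin. Slitrk6, a leucine-rich transmembrane protein of neurons and the inner ear (chr14:110747338-110755204, minus strand), had the largest step of all, 2.10, with 3.72, 2.72, 5.24 and 4.92 CPM in the P1 libraries, 15.9, 20.3, 20.2 and 27.8 in those of P3, 11.8, 21.7, 11.98 and 21.6 at P5 and 14.3, 9.69, 13.3 and 38.6 at P7. Its P7 libraries were split, 1 at 38.6 CPM and the other 3 from 9.69 to 14.3. Csmd1, a complement-regulatory membrane protein, rose from 1.20 ± 0.416 to 7.90 ± 1.31 CPM (SD, n = 4), close to the CPM minimum of the rule. Sema4f and Plxna4 (a semaphorin and a semaphorin receptor of axon guidance) had steps of 1.48 and 0.94. The Schwann cell and melanocyte list, which holds 1 member, had 204 to 230.1 summed CPM at P1, 224 to 270.0 at P3, 183 to 338 at P5 and 180.1 to 457 at P7. Its part in the members' values was not tested.

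Secreted signals and receptors made a further group. Pdgfd, a ligand of PDGF receptor beta, went from 33.8 ± 3.90 CPM at P1 to 80.4 ± 10.6 at P3 and 97.5 ± 20.8 at P7 (SD, n = 4), and Hbegf, an EGF receptor ligand, from 13.9 ± 2.39 to 31.5 ± 7.75 and 34.7 ± 9.11. Flt1 (VEGF receptor 1), an endothelial gene too, went from 76.05 ± 8.27 to 181 ± 19.8 CPM, while the summed level of the endothelial list was lower at P3 than at P1. Which cells supplied the Flt1 transcript was not tested. Vdr, the vitamin D receptor, had 29.3, 30.4, 40.9 and 32.5 CPM in the P1 libraries, 86.7, 76.7, 94.8 and 90.4 in those of P3, 110.0, 93.3, 112 and 82.1 at P5 and 103, 97.3, 119.8 and 99.3 at P7. Plk2, a p53-responsive kinase, had 80.3, 90.4, 70.3 and 94.7 CPM at P1 and 190.4, 204, 199.5 and 217 at P3. Foxf1, a transcription factor of mesenchyme, was low throughout, 1.64 ± 0.520 CPM at P1 and 6.79 ± 1.77 at P3, and Lbh, a transcriptional cofactor, was higher, 185 ± 14.04 and 476 ± 13.9 (SD, n = 4).

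Metabolic and stress genes completed the set. Cth (cystathionine gamma-lyase, which makes cysteine) had a step of 1.43, Cmah (the hydroxylase that makes the sialic acid Neu5Gc) 1.65 and Slc1a6 (a glutamate transporter) 1.44. Trib3 and Vldlr, both induced by the stress factor ATF4, had steps of 1.02 and 0.86 and P7 minus P3 differences of -0.31 and -0.37. Tmeff1, a transmembrane protein with follistatin-like domains, had a step of 1.59. Counts of Cyp4a12b (step 1.48) could be split with a near-identical paralog, and AF357359 (step 1.46) is a small nucleolar RNA annotated over only 30 bases, so its counts are uncertain. Exons of 19 members overlap those of another annotated gene, among them Postn, Ccn2, Col5a1, Col28a1, Slc1a6, Ltbp4, Ugt1a6a, Pcdhga7 and Hbegf, and the counting ignored strand, so reads of the partner gene cannot be told apart.

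The same contrasts were also fitted with edgeR's quasi-likelihood test across 13442 genes, as a description, since the rule used them. At P3 against P1, 81 of 89 members passed both an adjusted p under 0.05 and a fold limit (log2 fold change above 1 in size), where 8.98% of all genes tested did, and nothing is read from that. At P5 against P3, 0 of 89 members passed both limits (background 3.89%) and 20 had an unadjusted p under 0.05. At an adjusted p under 0.05 there were 10, 9 higher and 1 lower (background 28.7%, with 13.4% higher and 15.3% lower). At P7 against P3, 0 passed both (background 11.9%) and 28 had an unadjusted p under 0.05. The adjusted p was passed by 25, 24 higher and 1 lower (background 51.3%, with 24.8% higher and 26.5% lower). In this fit, 64 of the 89 members lay above 0 at P7 against P3, where 49.4% of all genes did. DESeq2 likewise called 0 members in both comparisons. The band of the rule largely fixes the counts at P5 and P7 in advance, so nothing is read from them either. The scaling bears on the band, since the rule uses library sums. On the log2(CPM + 1) scale with library sums, the median over genes with the CPM minimum moved by -0.08 from P1 to P3. From P3 to P7 it moved by -0.11. In the fit with TMM scaling (which sets the typical gene to no change), the median log2 fold changes over all 13442 genes were 0.00 and -0.01. These medians thus differ in gene set and scale besides the scaling. The members' median change from P3 to P7 was 0.10 on the log2(CPM + 1) scale with library sums. As a log2 fold change in the TMM fit it was 0.21.

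Promoter sequence was available in RefSeq (GRCm38.p6) for 60 of the 89 members, as windows of 300 bases that begin 250 bases before an annotated start site, which need not be the outermost start of the gene. Patterns of letters for 6 factors were searched on both strands. The CArG box (CC, then 6 bases of A or T, then GG), which serum response factor binds, occurred in the windows of 6 of the 60 members (10%) and of 1.81% of all 27025 genes, or 1.59% of the 8291 with a mean CPM of at least 5 at P3. These 6, named after their matches were seen, are shown because the box is the motif they share, each as 50 bases, 5′ to 3′ along the gene, with the box in capitals:
Arrdc4, chr7:68749419-68749468, minus strand: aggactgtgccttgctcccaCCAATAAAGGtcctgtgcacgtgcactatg
Fhl1, chrX:56779561-56779610, plus strand: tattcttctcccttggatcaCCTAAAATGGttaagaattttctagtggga
Lclat1, chr17:73107849-73107898, plus strand: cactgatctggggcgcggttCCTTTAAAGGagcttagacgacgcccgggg
Lurap1l, chr4:80910488-80910537, plus strand: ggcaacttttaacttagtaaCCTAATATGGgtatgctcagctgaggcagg
Rnd3, chr2:51149182-51149231, minus strand: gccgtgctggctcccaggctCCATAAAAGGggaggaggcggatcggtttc
Stbd1, chr5:92602995-92603044, plus strand: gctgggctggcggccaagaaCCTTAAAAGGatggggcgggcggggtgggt

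In these stretches the box began between 36 and 210 bases before the start site. Fhl1 (a LIM-domain protein of contractile cells) had mean CPM of 67.1 at P1 and 128 at P3, Rnd3 (an atypical small GTPase) 72.05 and 128, Lurap1l 36.9 and 85.7, Lclat1 74.9 and 137, Arrdc4 13.3 and 33.3, and Stbd1 6.24 and 11.95. Other patterns lay nearer to their share of all genes. The AP-1 letters TGANTCA were in 5% of member genes, 8.97% of all and 5.84% of those with the CPM minimum, and the TEAD letters GGAATG in 11.7%, 16.6% and 13.8%. The CRE letters TGACGTCA were in 5% (Flt1, Mcam and Plk2), 2.03% and 3.78%. Either E2F form (TTTCCCGC or TTTGGCGC) was in 1.67%, 1.80% and 3.71%, and the antioxidant element TGACNNNGC in 21.7%, 14.0% and 17.2%. A match is a run of letters and not a measured binding site. No test was made of these shares.

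The promoters of the members with the largest steps are shown for comparison, 250 bases up to the start site of the window, with any of the searched patterns in capitals:
Slitrk6, chr14:110755150-110755399, minus strand: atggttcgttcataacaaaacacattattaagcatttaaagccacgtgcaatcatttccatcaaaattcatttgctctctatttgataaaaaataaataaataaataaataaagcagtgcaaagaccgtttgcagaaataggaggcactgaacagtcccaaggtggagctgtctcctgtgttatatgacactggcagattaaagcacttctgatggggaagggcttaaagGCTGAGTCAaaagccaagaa
Itga11, chr9:62677605-62677854, plus strand: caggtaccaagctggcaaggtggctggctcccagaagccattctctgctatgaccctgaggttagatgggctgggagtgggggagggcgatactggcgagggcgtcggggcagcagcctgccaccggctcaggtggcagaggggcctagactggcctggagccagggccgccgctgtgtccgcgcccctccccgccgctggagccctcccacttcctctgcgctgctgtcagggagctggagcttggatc

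In the Slitrk6 promoter the capitals hold TGAGTCA, an AP-1 match that begins 18 bases before the start site of this window, inside an overlapping match to the antioxidant pattern, GCTGAGTCA, that begins 20 bases before it. This start site lies inside the gene's span given above, which has 2 annotated start sites. None of the searched patterns was found in the Itga11 window.

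Open chromatin at the promoters showed few changes in the members, in either direction. The measure was the strongest ATAC-seq peak within 1000 bases of any annotated start site, and 0 where none overlapped. It is given as a percentile among all listed peaks of the sample by MACS2 −log10 p, with repeated intervals kept. Listed peaks numbered 230188 to 251580 in the P1 samples, 203912 to 210079 at P3, 222803 to 265932 at P5 and 255276 to 261834 at P7. A percentile also moves with the number of weak peaks listed, and the part of that in the changes was not tested. A promoter peak was present in all 13 samples for 77 members (86.5%, against 98.2% of 10287 genes with the CPM minimum), in some samples for 11 and in none for 1 (Pkp2). In the samples the median percentile of members with a peak was 80.3 to 86.8, below the 91.0 to 93.9 of all genes with the CPM minimum. From P1 to P3, 87 members could be fitted with limma, and 32 of them had a change above 0, with a median of -1.76 percentiles beside -1.35 over all 17516 genes fitted. Of these 87 members, 3 rose (10.3% of members changed either way, background 9.05%) and 6 fell at an adjusted p under 0.05, where 1.21% and 7.84% of all genes did.

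The 3 that rose were Pcdhga7, Pde4b (a cAMP phosphodiesterase) and Tbxa2r (the thromboxane A2 receptor). Pcdhga7, a clustered protocadherin, had percentiles of 57.1, 60.2, 54.7 and 54.7 in the P1 samples, 71.6, 65.5 and 65.4 in those of P3, 81.6, 81.7 and 79.2 at P5 and 86.8, 89.6 and 87.5 at P7. It rose at P3 against P1 (10.8 ± 1.81 percentiles, adjusted p = 0.0103), again at P5 against P3 (13.3 ± 1.93 percentiles, adjusted p = 0.0158) and at P7 against P3 (20.4 ± 1.93 percentiles, adjusted p = 0.000632). Its percentiles did not overlap between any of the passages. In the opposite direction, Fam169b had 93.1, 93.9, 94.9 and 91.5 at P1 and 44.1, 31.2 and 37.9 at P3, and fell by 55.6 ± 6.44 percentiles (limma, adjusted p = 0.00194), although its transcript rose by 1.03 on the log2(CPM + 1) scale. Its P7 values were 0, 1.47 and 12.6, where 0 means that no peak was listed. C330018D20Rik, Sema4f, Pdgfd, Lurap1l and Gabrb1 also fell from P1 to P3, C330018D20Rik and Sema4f by 22.2 and 22.8 percentiles.

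At P5 against P3, Pcdhga7 and Ank3, a membrane scaffold protein, changed among 87 members (2 in all, background 1.99%), both higher. At P7 against P3, 5 members rose and 6 fell (12.6%, background 10.4%, with 4.18% higher and 6.27% lower). Stbd1 fell by 18.5 ± 3.09 percentiles (limma, adjusted p = 0.00698), and C330018D20Rik rose by 15.2 ± 3.43 percentiles, adjusted p = 0.0235. The abundant matrix genes Thbs1, with percentiles of 88.2, 96.8 and 91.1 at P3 and 82.6, 87.4 and 81.4 at P7, and Col5a1, with 92.3, 92.6 and 93.7 and 86.6, 79.2 and 87.2, were among those that fell, while their transcripts moved by 0.25 and 0.38. These shares of members are near the shares of all genes in each comparison. The counts rest on few samples: without the third P1 sample 5 members passed at P3 against P1. At P5 against P3, 1 passed without the first or the third P3 sample and 0 without the first or the second P5 sample. At P7 against P3, 6 passed without the first P3 sample and 7 without the third P3, the second P7 or the third P7 sample.

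**Figure D3:**
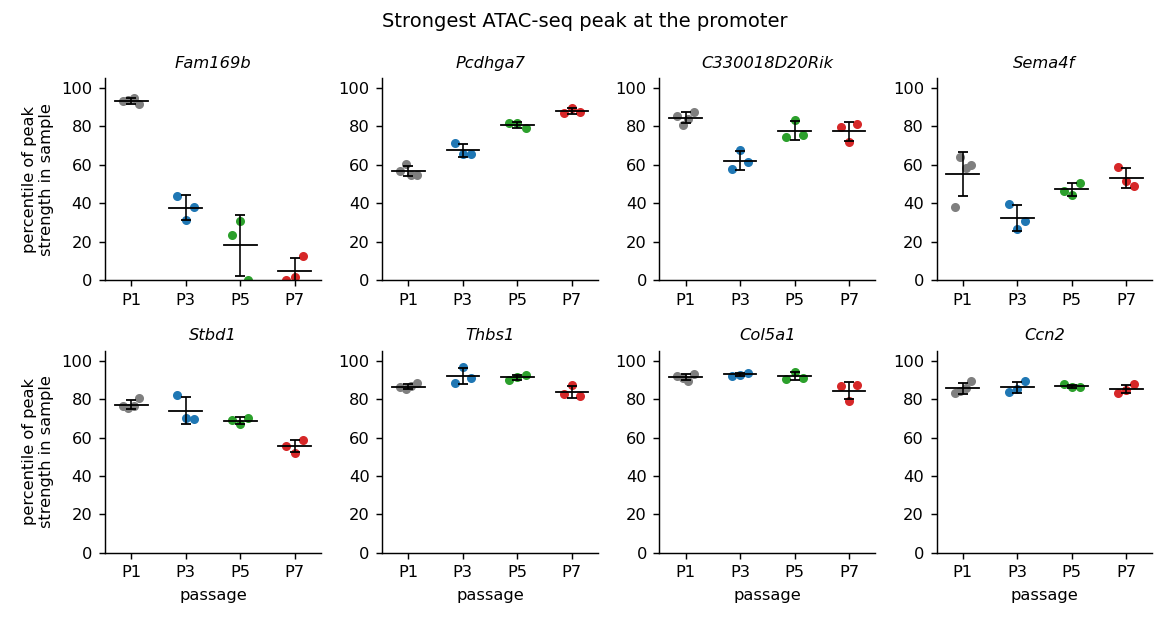
Percentile of the strongest promoter peak among all ATAC-seq peaks of its sample, for 8 members at P1 (4 samples) and P3, P5 and P7 (3 each). Points are samples, lines the mean and bars the SD, and 0 means that no peak was listed. Fam169b went down and Pcdhga7 up over the passages, and Ccn2 stayed between 83.2 and 89.3.

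The targeted genes were checked before members were compared. E2f4 was at 35.4 and 47.5 TMM-scaled CPM in the control libraries and at 1117 and 1179 in the overexpressing ones, transgene reads included (edgeR, log2 fold change 4.79 ± 0.15). Under E2f4 sh1 it fell from 59.6, 60.8 and 59.5 to 21.6, 20.3 and 21.7. Tead1 fell from 572, 508 and 544 to 268, 284 and 285 under sh3, and to 315, 313 and 320.2 under sh4. Atf3 was low in all arms, at 3.31, 2.85 and 2.77 in the control, 1.46, 2.10 and 0.451 under sh5 and 1.51, 1.56 and 2.09 under sh6. Its fall passed the adjusted p with sh5 (0.0447, edgeR) and did not with sh6 (0.114), although every sh6 library lay below every control. The third sh5 library stood apart from the other 2 over all genes (mean chi-square per gene of 63.3 and 67.9 against them, and 3.39 between those 2), with 15.08% of its reads on no feature against 11.13 and 10.73%, and the count of calls without it is given with the Atf3 results.

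With E2f4 overexpression, more members went down than up. All 89 were tested, and 65 had a log2 fold change below 0. Reads on no feature made up 6.01 and 5.64% in the E2f4 libraries and 11.48 and 10.83% in the control libraries. The part of this library difference in the members' changes was not tested. Of the 89, 24 passed both limits, 7 higher and 17 lower (27.0%, background 18.1% of 13199 genes, with 10.4% lower and 7.69% higher). At an adjusted p under 0.05 alone, 45 fell (50.6%) and 13 rose (14.6%), beside 28.2% and 28.9% of all genes (57.2% either way). The median member changed by -0.40 on the log2 scale and the median gene by 0.01. Falls thus took up a larger share of the members than of all genes tested by either limit (19.1% past both). Rises past both limits made up 7.87% of the members, close to their share of all genes. The background here and in the knockdowns was all genes tested, not matched to the members for level. The part of level in these shares was not tested.

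Slitrk6, with the largest passage step on the log2(CPM + 1) scale, also fell most. In the edgeR fit of P3 against P1, Csmd1 changed more (log2 fold change 2.84, against 2.46 for Slitrk6). With E2f4, other members with large steps, Itga11, Csmd1 and Col28a1, changed by -0.75, 0.31 and -0.45. Slitrk6 was at 8.64 and 5.99 CPM in the control libraries and 0.727 and 0.0955 with E2f4 (edgeR, log2 fold change -4.02 ± 0.45, adjusted p = 4.95e-05). Dkk2, a secreted modulator of WNT signalling, went from 30.2 and 30.3 to 3.16 and 3.68 CPM (log2 fold change -3.15 ± 0.16, adjusted p = 1.11e-06). Both pairs of libraries were far apart. AF357359 went from 71.8 and 49.2 to 10.1 and 9.17 (log2 fold change -2.65 ± 0.18, adjusted p = 4.67e-06).

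Of 15 members sorted by hand as matrix proteins and matrix enzymes, once values had been seen, 11 fell and 2 rose at an adjusted p under 0.05. By the same limit 28.2% of all genes fell and 28.9% rose, and 50.6% and 14.6% of all members. Lox fell past both limits, from 7141 and 7086 to 3547 and 3294 CPM (log2 fold change -1.06 ± 0.09, adjusted p = 1.23e-05). Thbs1 went from 25782 and 26602 to 13219 and 13931 (log2 fold change -0.95 ± 0.08, adjusted p = 1.5e-05) and Postn from 4094 and 4076 to 2390.4 and 1852 (log2 fold change -0.95 ± 0.12, adjusted p = 9.65e-05), both short of the fold limit. Adamts12, Adamts6 and Tnmd (tenomodulin, a tendon matrix protein) fell as well, with log2 fold changes of -1.09, -1.14 and -1.45. Col5a1 (-0.36), Col5a2 (-0.34) and Itga11 (-0.75) fell by less. Against this direction, Fmod rose by 0.63 and Ltbp4, a latent TGF-beta binding protein, from 43.6 and 50.9 to 142 and 159 CPM (log2 fold change 1.67 ± 0.12, adjusted p = 6.43e-06). Ccn2 had 2641 and 3094 and 2866 and 2928 CPM, overlapping ranges (adjusted p = 0.907).

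The members that rose most were Plekhb1 and Artn. Plekhb1 had 0.0873 and 0.115 CPM in the control and 1.13 and 1.003 with E2f4, so its fold rests on very low levels. Artn (artemin, a ligand of the GDNF family) went from 1.13 and 1.21 to 5.85 and 6.16 CPM (log2 fold change 2.35 ± 0.25, adjusted p = 3.6e-05). Tubb3, a neuronal beta-tubulin, rose by 1.48, and Cdh3 by 1.45, each with both E2f4 libraries above both controls.

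E2f4 sh1 moved members little. Of 81 members tested, 0 passed both limits in edgeR (background 1.67%) and 0 in DESeq2, 32 passed the adjusted p alone, 21 higher and 11 lower (39.5%, background 17.8%), and 43 had an unadjusted p under 0.05. Without the first or second sh1 library, or the first control, 1 member passed both limits. That control library had 14.27% of its reads on no feature, against 8.8 and 10.06% in the other controls. It had 18352 genes with a count, against 14984 and 15510. Over all genes it did not stand apart (mean chi-square per gene of 2.80 and 2.74 against the others, and 3.41 between those). The other 8 members, among them Slitrk6 and Csmd1, had too few counts to be tested. The background was not matched to the members for level here either. Postn fell from 3672, 3829 and 3922 to 2829, 2903 and 2944 CPM (log2 fold change -0.40 ± 0.05, adjusted p = 0.000175), as with overexpression. Itga11 rose from 589, 596 and 634 to 747, 731 and 849 (log2 fold change 0.36 ± 0.07, adjusted p = 0.00199) and Ccdc80 by 0.41, the opposite of their direction with overexpression. Fmod rose in both, by 0.59 here. Lox (-0.02) and Thbs1 (0.17) did not pass. The difference between the overexpression and knockdown effects was not tested, since the cells differed in passage and treatment.

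**Figure D4:**
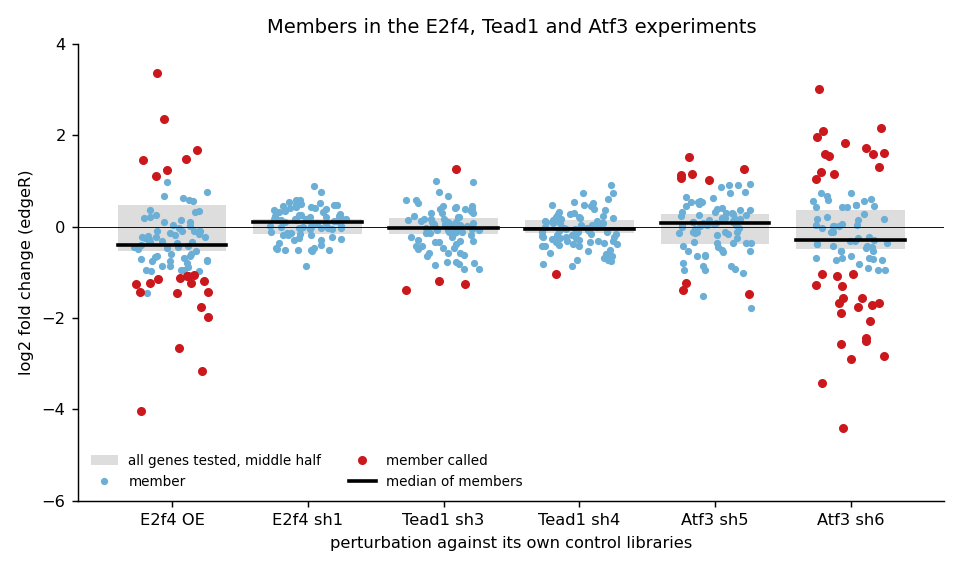
Log2 fold changes (edgeR) of the members tested in each of 6 perturbations against its own control libraries. Red points passed the limits on both adjusted p and fold, black lines mark the members' median and grey boxes the middle range (between the quartiles) of all genes tested. The members' median lies lowest with E2f4 overexpression (-0.40) and Atf3 sh6 (-0.29).

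With Tead1 knockdown, few members passed the fold limit, though many small shifts passed the adjusted p. Both hairpins target nearly the same stretch of Tead1, so agreement between them is not independent support. Of 84 members tested, sh3 called 4, 1 higher and 3 lower (4.76%, background 2.71%, with 1.99% higher and 0.722% lower), and sh4 called 1, lower (1.19%, background 1.53%). Without the third sh3 library sh3 called 7, and without the third sh4 or the first control library sh4 called 0. At the adjusted p alone, 24 members rose and 29 fell with sh3 (63.1% in all, background 35.4%), and 20 rose and 31 fell with sh4 (60.7%, background 29.1%). This background was not matched to the members for level, and the part of level in these shares was not tested. The members' median was -0.04 with sh3 and -0.06 with sh4, beside 0.00 over all genes with both. A direct test of sh4 against sh3 called 0 of 84 members in edgeR and in DESeq2 (background 0.269%), with 23 past the adjusted p alone (background 7.37%) and 37 at an unadjusted p under 0.05.

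Cyp4a12b was called with both hairpins, at 9.13, 8.22 and 8.06 CPM in the control, 4.04, 2.87 and 3.75 under sh3 (edgeR, log2 fold change -1.25 ± 0.16, adjusted p = 3.07e-07) and 4.53, 4.46 and 3.39 under sh4 (log2 fold change -1.03 ± 0.16, adjusted p = 6.82e-06). Neither hairpin's libraries reached those of the control. Pdk1, a pyruvate dehydrogenase kinase, went from 9.94, 12.5 and 11.4 to 4.50, 3.97 and 4.41 with sh3 and 6.34, 5.89 and 6.46 with sh4, and Slc1a6 from 34.1, 31.05 and 33.6 to 14.1, 14.5 and 14.7 and 18.6, 21.1 and 21.8. Col28a1 rose from 2.37, 2.61 and 2.22 to 5.30, 7.22 and 4.84 and 4.12, 5.28 and 4.25.

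Among the matrix members, Postn fell with both hairpins, from 3776, 4202 and 3891 CPM to 2684, 2559 and 2738 with sh3 and 2544, 2736 and 2599 with sh4 (log2 fold changes of -0.57 and -0.59). Lox went the other way, from 4039.5, 4239.8 and 4069 to 6136, 6340.1 and 6158 and 5722, 6053 and 6032, and Fmod rose by 0.68 and 0.61. All of these passed the adjusted p. Ccn2, the best known TEAD target among them, fell by a small amount, from 2519, 2655 and 2671 to 2196, 2125 and 2074 (log2 fold change -0.29 ± 0.03, adjusted p = 4.23e-08) and 2415, 2425 and 2388 (log2 fold change -0.12 ± 0.03, adjusted p = 0.00953). Over the 24 YAP and TEAD target genes tested, to which Ccn2 and Ccdc80 belong, 1 rose (Igfbp3) and 0 fell past both limits with sh3, and likewise with sh4 (background 1.01% higher). At the adjusted p alone 11 rose and 7 fell with sh3, where 17.6% of all genes rose and 17.7% fell, and 10 rose and 5 fell with sh4, where 14.4% rose and 14.7% fell.

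With Atf3 knockdown the hairpins gave different pictures. Of 87 members tested, sh5 called 9, 6 higher and 3 lower (10.3%, background 5.20%, with 1.38% higher and 3.82% lower), and sh6 called 34, 14 higher and 20 lower (39.1%, background 15.7%, with 4.83% higher and 10.9% lower). At the adjusted p alone the counts were 44 (50.6%, background 35.9%) and 68 (78.2%, background 49.8%). These backgrounds too were not matched to the members for level. In the test of sh6 against sh5, which does not compare with the shared controls, 34 members differed, 11 higher and 23 lower with sh6 (39.1%, background 15.8%, with 6.36% higher and 9.39% lower). For Atf3 itself sh6 and sh5 did not differ past the threshold (log2 difference 0.35 ± 0.42, adjusted p = 0.504). Without the third sh5 library, the count for sh5 was 8, and without the second it was 14. E2f4 was itself higher with sh6 than in the control (edgeR, log2 fold change 0.67 ± 0.10, adjusted p = 0.000311), and the part of that in the members' changes was not tested.

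Some members fell with both hairpins. Trib3 went from 53.5, 55.2 and 59.2 CPM to 23.2, 22.6 and 14.4 with sh5 (edgeR, log2 fold change -1.48 ± 0.16, adjusted p = 0.000283) and 10.9, 9.17 and 9.46 with sh6 (log2 fold change -2.51 ± 0.17, adjusted p = 1.43e-06). The ATF4 stress and serine synthesis list, to which Trib3 and Vldlr belong, had 25 tested genes. Of these, 3 fell past both limits with sh5 and 10 with sh6, where 3.82% and 10.9% of all genes fell. Past both limits, 0 rose with either hairpin. With the adjusted p alone, 0 and 2 rose, where 17.7% and 23.8% of all genes did. Tbxa2r went from 31.7, 36.5 and 33.2 to 14.7, 18.2 and 5.75 and 3.54, 2.64 and 3.19, and Ltbp4 from 67.7, 68.3 and 67.8 to 34.8, 35.7 and 15.8 and 10.7, 9.34 and 7.37. In both, the third sh5 library was far below the other 2. Akap6, a scaffold of protein kinase A, was called higher with both, at 1.52 and 1.61.

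The hairpins differed for some matrix members and not for others. In the test of sh6 against sh5, 1 of 15 was higher and 7 were lower past both limits (background 6.36% and 9.39%). Several moved in the same direction with sh5 and sh6, such as Ltbp4 (-1.24 and -2.89), Col5a1 (-0.61 and -0.53) and Tll1 (0.50 and 0.44). Fmod went from 139, 133 and 132 CPM to 71.3, 81.6 and 59.6 with sh5 (log2 fold change -0.93 ± 0.10, adjusted p = 0.000335) and to 6.33, 6.11 and 6.50 with sh6 (log2 fold change -4.41 ± 0.13, adjusted p = 1.78e-08), the largest fall of any member there. Postn rose with sh5, from 7862, 7271 and 7231 to 9295, 9805 and 11476 (log2 fold change 0.45 ± 0.09, adjusted p = 0.00437), and fell with sh6, to 2867, 3057 and 3290.2 (log2 fold change -1.28 ± 0.09, adjusted p = 1.73e-06). Ccn2 fell with sh5, from 507, 572 and 539 to 359.9, 409.9 and 344 (log2 fold change -0.54 ± 0.08, adjusted p = 0.0013), and rose with sh6, to 1838, 1818 and 1712 (log2 fold change 1.73 ± 0.08, adjusted p = 1.73e-07). Thus both of these members moved in opposite directions with the 2 hairpins, and both differed between hairpins (log2 differences, sh6 minus sh5, of -1.73 and 2.27).

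**Figure D5:**
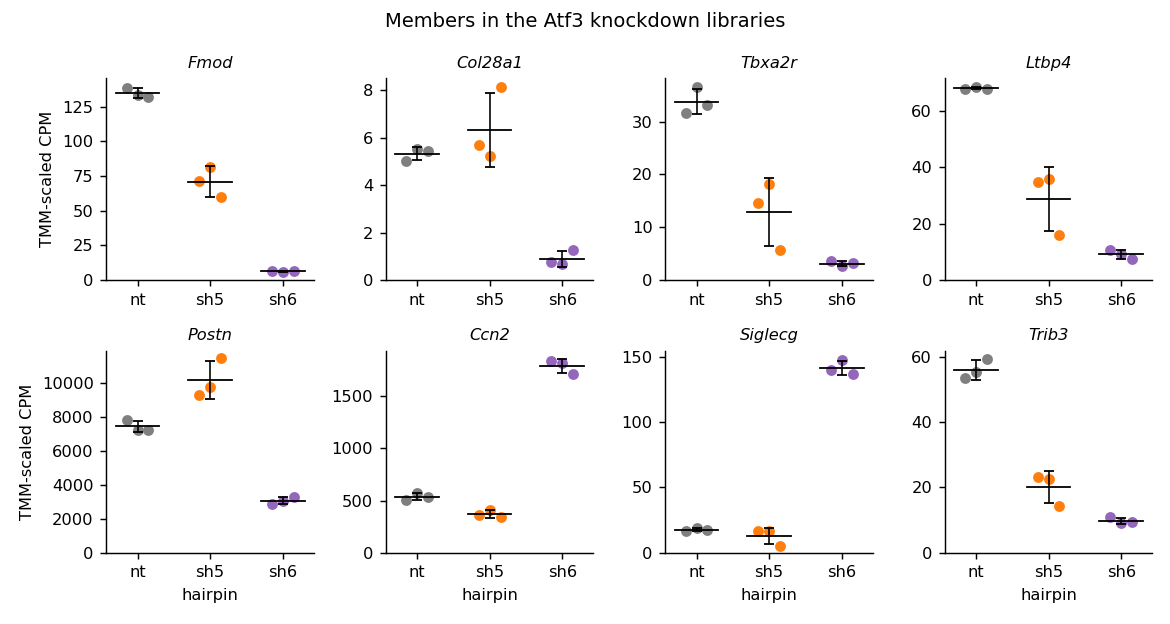
TMM-scaled CPM of 8 members in the 3 control (nt), 3 sh5 and 3 sh6 libraries of the Atf3 experiment. Points are libraries, lines the mean and bars the SD (n = 3), with axes from 0. Trib3, Tbxa2r and Ltbp4 lie below the control with both hairpins, and for Postn and Ccn2 the sh5 and sh6 libraries lie on opposite sides of the control.

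Other large changes belonged to sh6. Lox went from 4038, 3706 and 3624 CPM to 1059, 1098 and 1219.9 and Itga11 from 393, 435 and 384 to 121, 115 and 131 (log2 fold changes of -1.75 and -1.72), where sh5 gave 0.08 (adjusted p = 0.38, edgeR) and -0.52. Siglecg, a sialic acid-binding lectin known from B cells, was at 16.8, 19.03 and 17.1 CPM in the control, 16.3, 16.8 and 5.41 with sh5 and 140.0, 147 and 137 with sh6 (sh6: log2 fold change 3.00 ± 0.30, adjusted p = 2.01e-05). Ugt1a6a, a glucuronosyltransferase that shares exons with its gene cluster, went from 10.5, 8.01 and 7.80 to 1.28, 0.359 and 2.03 with sh6. Vdr and Fibin were called higher with sh5 only, at 1.03 and 1.27, against -0.25 and 0.04 with sh6, and both differed between the hairpins (-1.28 and -1.23).

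Across the 6 perturbations, 56 members were called at least once and 33 never, 4 were called in 3 or more (Cyp4a12b, Ltbp4, Fam169b and Akap6, named after their values were seen), and 6 were called higher in one and lower in another. No share over all genes is given for these counts, and a single perturbation called up to 18.1% of all genes. The counts are thus not read as a trait of the members. Among the named genes, Postn fell in 5 of the 6 and rose in 1 (all at an adjusted p under 0.05). The falls with the Tead1 hairpins, which target nearly the same stretch, are not independent of each other. Side by side, the log2 fold changes of Postn were -0.95 with E2f4 overexpression, -0.40 with E2f4 sh1, -0.57 and -0.59 with the Tead1 hairpins, and 0.45 and -1.28 with the Atf3 hairpins. Those of Lox were -1.06, -0.02, 0.59, 0.53, 0.08 and -1.75 in the same order, and those of Itga11 -0.75, 0.36, 0.17, 0.30, -0.52 and -1.72.

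Some gene lists were counted at P3 against P1, where 2.40% of all genes rose and 6.58% fell past both limits, and 2144 of 13442 genes rose and 2349 fell at the adjusted p alone. The members on a list were chosen for their rise in this contrast, so they are no independent part of its count. Past both limits, 7 of 43 matrix glycoproteins and proteoglycans rose and 4 fell, 2 of 34 actomyosin and serum response factor targets rose and 1 fell, and 4 of 46 growth factor ligands rose and 5 fell. At the adjusted p alone, 19 actomyosin genes rose and 1 fell, 16 of 28 p53 targets rose and 3 fell, and 11 of 27 lysosome genes fell and 2 rose. Of 13 AP-1 and related factors, 2 rose and 2 fell at the adjusted p. In 8 hand-sorted roles that hold 76 of the members, the median step ranged only from 1.00 (metabolism, transport and redox) to 1.14 (transcription and RNA binding).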

How the data were processed

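RNA-seq reads were, per the study's methods, trimmed with Trimmomatic 0.39 and aligned to mm10 with HISAT2 2.2.1, and the authors deposited raw counts per gene from HTSeq 0.12.4, without strand. In the 28 perturbation files 5.64 to 15.08% of reads had no feature and 1.43 to 2.32% were ambiguous, and these were left out of library sums. ATAC-seq peaks were called by the authors per sample with MACS2, after Bowtie2 2.3.5.1, and deposited with −log10 p, −log10 q and fold enrichment. They hold no read counts, so their depth is unknown. RRBS samples were not analysed here.

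Counts were tested with edgeR 4.0.16 (quasi-likelihood, filterByExpr, TMM, all groups of an experiment in 1 fit, Benjamini-Hochberg over all genes), with DESeq2 1.42.0 as an alternative. A call needed a log2 fold change above 1 in size besides an adjusted p under 0.05. CPM is per library sum in the passage series and per TMM-scaled library in the perturbations, and standard errors were derived from the quasi-likelihood F. Promoter percentiles were tested with limma 3.58.1 over genes with a promoter peak in at least 3 samples. Scripts were tested on simulated data. No 2 replicates of 50 pairs agreed within sampling noise. Other scalings, filters, thresholds, windows and left-out libraries were tried.

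Members and gene lists were chosen with earlier results of these data known. Named were the members with the largest steps, the highest levels per kb, those in fixed lists, those with the largest called changes in each comparison, and the genes at each limit of the rule. Adamts6, Artn, Fhl1, Lclat1, Lurap1l, Pde4b, Rnd3 and Tubb3 were chosen as examples once their values had been seen, as were the hand-sorted roles. Some genes that this rule names are not reported here.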

Additional observations from a re-analysis of the deposited data

Results flagged for a closer look

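In 6 of 150 groups of 4 libraries or samples (4%) one library lay far from the other 3, where chance alone flags about 1 in 20. Of these, 4 came from the fourth replicate of P3, P5 or P7. Slitrk6 at P7 was 38.6 CPM in replicate 4 and 9.69 to 14.3 in the others, and Edil3 at P7 158 against 64.6 to 69.6. Mcam was 140.1 CPM in replicate 4 of P3 against 64.2 to 68.5, and 114 in replicate 4 of P5 against 60.4 to 68.3. Cyp4a12b at P5 was 15.1 CPM in replicate 1 against 10.4 to 10.6, and Plxna4 at P1 was 16.03 in replicate 2 against 18.02 to 18.3.

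The Atf3 hairpins differed in 34 members by edgeR's test of sh6 against sh5. Among the named members, the log2 difference (sh6 minus sh5) was negative for Fmod (-3.49), Col28a1 (-2.81), Ugt1a6a (-2.71), Plxna4 (-1.95), Lox (-1.83), Vldlr (-1.73), Postn (-1.73), Foxf1 (-1.31), Vdr (-1.28), Itga11 (-1.21), AF357359 (-1.15), Edil3 (-1.05) and Trib3 (-1.03). It was positive for Siglecg (3.46), Ccn2 (2.27), Mcam (1.54) and Cyp4a12b (1.27). Atf3 itself did not differ past the threshold between the hairpins (0.35 ± 0.42).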

How the results depend on the processing

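The rule gave 50 members with a step of 1.0, and 73 to 124 under its other settings (124 with TMM scaling, of which 85 are among the 89). With no limit on the fold, 58 members passed with E2f4 overexpression, 32 with E2f4 sh1, 53 and 51 with Tead1 sh3 and sh4, and 44 and 68 with Atf3 sh5 and sh6. Promoter counts moved too: with 500 bases either side 5 members passed at P3 against P1, with log2 fold enrichment 3, 1 and 7 passed at P3 against P1, P5 against P3 and P7 against P3, and with a −log10 q of at least 5, 4 passed at P5 against P3. The causes were not tested.

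Leaving out 1 library at a time gave 77 to 100 members, and calls of 23 to 27 with E2f4 overexpression, 0 to 1 with E2f4 sh1, 4 to 7 with Tead1 sh3, 0 to 1 with Tead1 sh4, 0 to 0 between the Tead1 hairpins, 8 to 14 with Atf3 sh5, 32 to 34 with Atf3 sh6 and 32 to 37 between the Atf3 hairpins. Promoter counts were 5 to 7 (P3 against P1), 0 to 3 (P5 against P3) and 6 to 9 (P7 against P3). For 31 named values under 337 alternatives, 308 kept direction and side of the threshold, 29 no longer passed (Cyp4a12b with Tead1 sh4 and promoter changes) and 0 reversed.

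The labels tie no replicate number to a culture, and same-numbered deviations correlated at -0.26 to 0.28, so pairing was not assumed. In the passage series their median was 0.09, against -0.02 for different numbers, and the members' median deviation was above the passage mean at all 4 passages in replicate 4 (0.03 to 0.13) and below it in replicates 1 (-0.13 to -0.03) and 3 (-0.07 to -0.03). With the replicate block, 80 members passed at P3 against P1, 26 with E2f4 overexpression, 0 with E2f4 sh1, 4 and 1 with the Tead1 hairpins, 9 and 34 with the Atf3 hairpins, 35 between the latter, and 6, 1 and 7 promoters in the 3 passage comparisons. In the E2f4 knockdown, with library sums of 9147324 to 10467751, 8 low members could not be tested, and 5 members could not be tested in the Tead1 knockdown.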
